A study of Homo sapiens with 4 samples.

Results

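Noncoding snoRNA host genes are genes whose spliced RNA encodes no known protein and whose introns carry small nucleolar RNAs (snoRNAs). The 10 genes considered were GAS5, SNHG1, SNHG3, SNHG5, SNHG7, SNHG8, SNHG12, SNHG15, ZFAS1 and DANCR, and their signals were taken from every probe set whose annotation names exactly 1 gene and that gene is on the list. This gave 6 of the 54675 probe sets on the array and 3 of the 19775 genes named by such probe sets: 4 probe sets for ZFAS1, 1 for DANCR and 1 for GAS5. The other 7 genes had no such probe set, so no value is given for SNHG1, SNHG3, SNHG5, SNHG7, SNHG8, SNHG12 or SNHG15 by name. A further 14 probe sets name GAS5 or 1 of these 7 genes together with snoRNA genes, and they are described as a separate set, by probe set identifier and without assigning them to a gene.

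Total RNA came from HEK 293, an established human embryonic kidney cell line, after 7 days in DMEM with fetal calf serum. The medium contained glucose at 450 mg/dl in the high glucose group and at 100 mg/dl in the low glucose group, with 2 arrays per group. No other agent or genotype distinguishes the groups in the labels. Cultures of 1 line are a model of that line only, and the replicates, biological ones by their labels, are not described as separate cultures. The p-values therefore measure only the spread between these samples, which may be technical.

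A snoRNA host transcript is spliced, and the snoRNA, bound by box C/D or H/ACA proteins, is trimmed out of the debranched intron. The snoRNA guides these proteins to methylation or pseudouridylation sites in ribosomal RNA. The spliced exons of many noncoding hosts are exported, engaged by ribosomes and degraded by nonsense-mediated decay, so that the level of the exonic RNA depends on translation as well as on transcription. Many hosts begin with a terminal oligopyrimidine (TOP) tract, a C followed by further pyrimidines, which they share with ribosomal protein genes and which links the translation of the RNA to mTOR signalling. GAS5 was named for its accumulation in growth-arrested cells, ZFAS1 lies antisense to the start of ZNFX1, and DANCR was named as an antagonist of differentiation.

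RefSeq gene records (GRCh38.p14) class all 10 genes as lncRNA, and at least 1 annotated snoRNA gene lies within each of the 10 loci. GAS5 contains 11 snoRNA genes, SNHG1 9, SNHG12 4 and ZFAS1 3. DANCR contains 1 snoRNA gene and 1 miRNA gene. Start-site windows from RefSeq (GRCh38.p14) were found for 9 of the 10 genes, all but SNHG15. The windows of the 3 genes with signals of their own are shown first, because these genes differ in whether a TOP-like tract begins at the annotated start. Those of SNHG12 and SNHG5 follow as the other members where it does. The annotated start is a single position, and where the transcripts begin in these cells was not measured. Each window holds the 50 bases before the annotated start and the 50 from it onwards, and capitals mark every run of 5 or more pyrimidines from the start onwards.
ZFAS1 (chr20:49278592-49278691, plus strand): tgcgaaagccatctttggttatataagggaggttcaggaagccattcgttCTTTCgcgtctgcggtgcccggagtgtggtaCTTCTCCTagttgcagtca
DANCR (chr4:52712344-52712443, plus strand): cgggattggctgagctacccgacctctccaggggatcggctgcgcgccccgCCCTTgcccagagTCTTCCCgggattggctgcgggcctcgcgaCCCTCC
GAS5 (chr1:173868996-173869095, minus strand): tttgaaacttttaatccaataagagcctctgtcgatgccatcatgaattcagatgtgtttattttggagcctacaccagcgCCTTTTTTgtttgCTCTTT
SNHG12 (chr1:28581824-28581923, minus strand): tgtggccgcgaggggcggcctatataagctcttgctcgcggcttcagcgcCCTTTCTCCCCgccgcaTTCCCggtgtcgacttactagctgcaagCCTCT
SNHG5 (chr6:85678684-85678783, minus strand): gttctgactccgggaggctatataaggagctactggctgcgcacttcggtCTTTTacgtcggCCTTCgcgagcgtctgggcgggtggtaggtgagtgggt

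A C at the annotated start followed by at least 4 pyrimidines was found in 3 of the 9 member windows, those of ZFAS1, SNHG5 and SNHG12, and in 4.07% of all 35116 windows in the table. The unbroken run from the start was 5 bases in ZFAS1, 5 in SNHG5 and 11 in SNHG12. In GAS5 the annotated start base was an A, and the longest run, of 8 pyrimidines, began at base 32 counted from the start as base 1. In DANCR the start base was a G, and the longest run, of 7 pyrimidines, began at base 15. A run of 7 or more pyrimidines in the 50 bases from the start occurred in 26.7% of all windows, so its presence in 6 of the 9 member windows is a description only. The measure of the longest run was added after the sequences had been seen.

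Short motifs were also searched on both strands over 300 bases, from 250 before to 50 after the start. The letters GGGCGG, the core of an Sp1 site, occurred in 7 of the 9 member windows and in 45% of all windows. CCAAT occurred in 3 of 9 against 34.6%, TATAAA in 2 of 9 against 11.5% and CACGTG in 1 of 9 against 7.26%. TGACGTCA, TGATGNAA and the palindromic NRF1 motif occurred in 0 of 9, against 1.85%, 3.62% and 1.24% of all windows. Motifs can overlap each other, and a missing match says only that these letters are not in the window.

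The 4 arrays had been scaled to the same overall level, with a 2% trimmed mean of 200.02 signal units on each. The comparison asks which transcripts differ between the glucose concentrations, and 27307 probe sets with a mean signal of at least 32.9 entered it. Of these, 50.4% differed, 23.1% higher and 27.2% lower in high glucose (limma, Benjamini-Hochberg adjusted p under 0.05), and in 76.8% the arrays of the groups did not overlap. The median log2 difference over all tested probe sets was -0.06 with the authors' scaling and 0.11 after median centring, which raised the share of higher among all calls from 45.9% to 63%. All 24 probe sets for the poly-A spikes, bacterial transcripts added before labelling, differed by a median of 1.94 log2 units, being 3.84-fold higher in high glucose. The 6 ribosomal RNA probe sets were 3.31-fold higher by the same measure. The 18 probe sets for hybridisation controls went the other way, by a median of -0.34 log2 units, with a median signal of 486 on the array of high glucose replicate 1 and of 875, 869 and 891 on the others. For GAPDH the 3′ to 5′ signal ratio was 1.03 at its lowest and 1.23 at its highest, and for ACTB 1.17 and 1.36. Of the 7 marker genes listed for the line, the brightest probe sets of 6 were above the filter, and NEFM was not. KRT8 and KRT18, keratins of simple epithelia, were 2.09-fold and 2.10-fold higher in high glucose and the cadherin CDH2 1.45-fold higher, while VIM, an intermediate filament protein, was 1.87-fold lower, and NEFL and PAX2 did not pass. Summed over the brightest probe set of each gene, the list for the line read 21888 to 24641 in high glucose and 20007 to 20432 in low glucose. None of 4 blood cell markers on the array, 1 of 4 markers of differentiated kidney (AQP2) and 2 of 6 fibroblast markers (COL1A1 and COL3A1) were above the filter. The summed signal of the fibroblast list was 527 to 536 in high glucose and 334 to 384 in low glucose, that of the differentiated kidney list 46.1 to 73.8 and 60.7 to 98.4, and that of the blood cell list 18.8 to 63.7 and 35.8 to 59.6. The part of spikes, ribosomal RNA or marker genes in the results below was not tested.

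ZFAS1 RNA was lower in high glucose in its 3 bright probe sets, by 3.51-fold to 3.85-fold, and higher in its dim one, by 1.72-fold. DANCR was 1.33-fold higher, a call that depends on the setting. The 1 probe set naming GAS5 alone, at a signal close to the filter, had a difference smaller than its error. Of the 6 probe sets, all of which passed the filter, 3 were called lower and 2 higher, against 27.2% and 23.1% of all tested probe sets. Since 4 of the 6 belong to 1 gene, these counts are not evidence on the gene group. In a bulk lysate, fewer cells of a kind and less RNA per cell cannot be told apart.

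Probe set 226227_x_at, the brightest of ZFAS1, read 2862 and 2883 signal units on the high glucose arrays, against 10057 and 10133 on the low glucose arrays. Replicate arrays lay close together and the groups far apart, with no overlap. The log2 difference was -1.81 ± 0.06 (SE, n = 2 per group; limma adjusted p = 3.6e-06). Only 1.23% of tested probe sets had a larger fall.

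Probe set 224915_x_at gave 2499 and 2566 in high glucose, against 9813 and 9678 in low glucose. Its log2 difference was -1.94 ± 0.06 (limma adjusted p = 2.8e-06), the largest fall among the ZFAS1 probe sets. Probe set 226835_s_at gave 2232 and 2294 in high glucose, against 7924 and 8420 in low glucose. This corresponds to a log2 difference of -1.85 ± 0.07 (limma adjusted p = 3.6e-06). None of the 3 overlapped between the groups, as was the case for 76.8% of all tested probe sets. The 3 share their arrays and their annotated gene, and the suffixes _x_at and _s_at mark probes that can match more than 1 transcript, so they are not independent measurements of the fall.

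**Figure D1:**
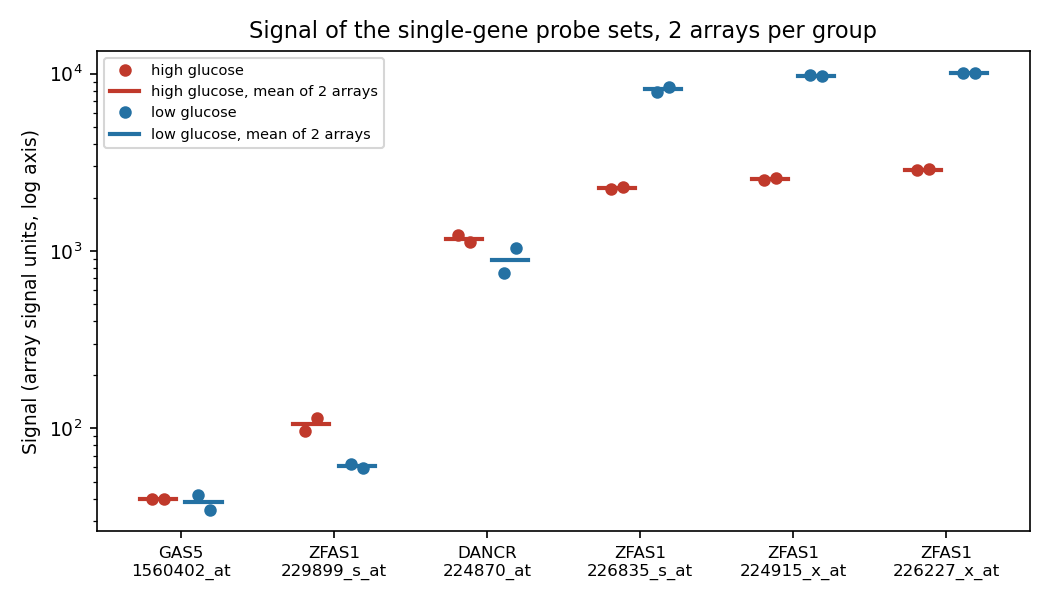
Signal of each single-gene probe set on the 4 arrays (log axis, array signal units), with points for arrays and bars for the mean of 2 arrays. The 3 bright ZFAS1 probe sets lie at 2232 to 2883 in high glucose and 7924 to 10133 in low glucose, the dim ZFAS1 probe set and DANCR lie higher in high glucose, and the GAS5 groups overlap.

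The fourth ZFAS1 probe set, 229899_s_at, went the opposite way. It read 96.4 and 115 in high glucose, against 62.7 and 59.6 in low glucose. The groups did not overlap, and the log2 difference was 0.78 ± 0.20 (limma adjusted p = 0.015), with 8.97% of tested probe sets rising by more. Without high glucose replicate 2 it no longer passed (0.66 log2 units, limma adjusted p = 0.1, from a range of 0.0035 to 0.1 over the alternatives). Which exons or introns of ZFAS1 each probe set matches was not analysed here.

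DANCR, measured by probe set 224870_at, read 1222 and 1119 in high glucose, against 748 and 1039 in low glucose. The groups did not overlap, but the low glucose arrays lay far apart, and the nearest values of the groups were 1119 and 1039. The log2 difference was 0.41 ± 0.14 (limma adjusted p = 0.046), and 22% of tested probe sets rose by more. The call was lost in 6 of 14 alternatives, among them leaving out high glucose replicate 1 (0.34, adjusted p = 0.14), high glucose replicate 2 (0.47, adjusted p = 0.053) or low glucose replicate 1 (0.17, adjusted p = 0.15). Over all alternatives the limma adjusted p ranged from 0.00058 to 0.16.

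GAS5 had 1 probe set naming it alone, 1560402_at. Its signals were 39.7 and 39.8 in high glucose, against 41.8 and 34.7 in low glucose. The low glucose arrays lay on both sides of the high glucose arrays, close to the filter signal of 32.9. The log2 difference was 0.06 ± 0.28 (limma adjusted p = 0.87), and without low glucose replicate 2 it turned to -0.07. A signal at this level is not shown to be above background. A further 4 probe sets name GAS5 together with snoRNA genes and are described below. Of these, 224741_x_at and 224841_x_at were called lower, and 227517_s_at and 228238_at higher. The values of 1560402_at alone therefore do not give the level or the response of GAS5.

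**Figure D2:**
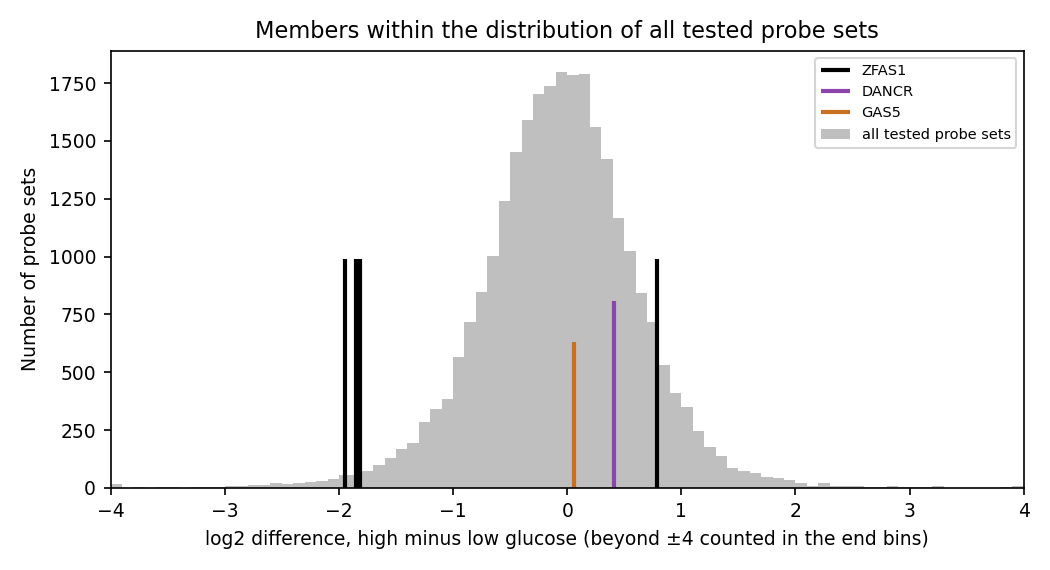
Histogram of the log2 difference (high minus low glucose) of all 27307 tested probe sets, with vertical lines at the probe sets of ZFAS1, DANCR and GAS5 (line height carries no meaning). The 3 bright ZFAS1 probe sets stand in the left tail between -1.94 and -1.81, the dim one stands at 0.78, and DANCR and GAS5 lie at 0.41 and 0.06.

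The 14 probe sets that name a listed host together with 1 to 8 snoRNA genes were mostly lower in high glucose. All 14 passed the filter, 10 were called lower, 2 higher and 2 did not pass, beside 27.2% lower and 23.1% higher among all tested probe sets. Their median log2 difference was -0.83, against -0.06 for all tested probe sets. They carry 8 different annotations, and probe sets with the same annotation are not separate loci. Mature snoRNAs are short and lack a poly(A) tail, but the annotation does not settle which of the named genes a probe set measures.

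The lowest of these were 224741_x_at and 224841_x_at, which share an annotation of 9 genes. Probe set 224741_x_at read 1762 and 1714 in high glucose, against 8687 and 8483 in low glucose, a 4.94-fold lower level (-2.30 ± 0.06 log2 units, limma adjusted p = 1.4e-06). Probe set 224841_x_at read 1727 and 1633 against 7665 and 8170, 4.71-fold lower. The other 2 probe sets with this same annotation rose. Probe set 227517_s_at read 1502 and 1408 in high glucose, against 954 and 963 in low glucose (0.60 ± 0.06 log2 units, limma adjusted p = 0.00024), and 228238_at read 899 and 1065 against 720 and 716 (0.45 ± 0.09, limma adjusted p = 0.0046). As for ZFAS1, probe sets under 1 annotation were called in opposite directions.

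A second annotation, of 3 genes, held 229050_s_at, at 1457 and 1656 in high glucose, against 4751 and 5177 in low glucose (-1.67 ± 0.08), and 1552729_at, at 145 and 168 against 159 and 188 (-0.15 ± 0.15, limma adjusted p = 0.43). The groups of 1552729_at overlapped, while those of the other 13 probe sets did not, beside 76.8% of all tested probe sets. An annotation of 4 genes held 3 probe sets that all fell: 223774_at by 1.05, 223773_s_at by 1.00 and 228990_at by 0.34 log2 units. The remaining 5 had an annotation each. Probe set 225220_at fell 2.78-fold, from 1922 and 1688 in low glucose to 691 and 609 in high glucose, and 224610_at 2.06-fold, from 5213 and 5259 to 2679 and 2405. Falls of 1.59-fold and 1.57-fold were measured for 225155_at and 225699_at. Probe set 215011_at stood at 0.49 ± 0.24 without passing (limma adjusted p = 0.12).

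**Figure D3:**
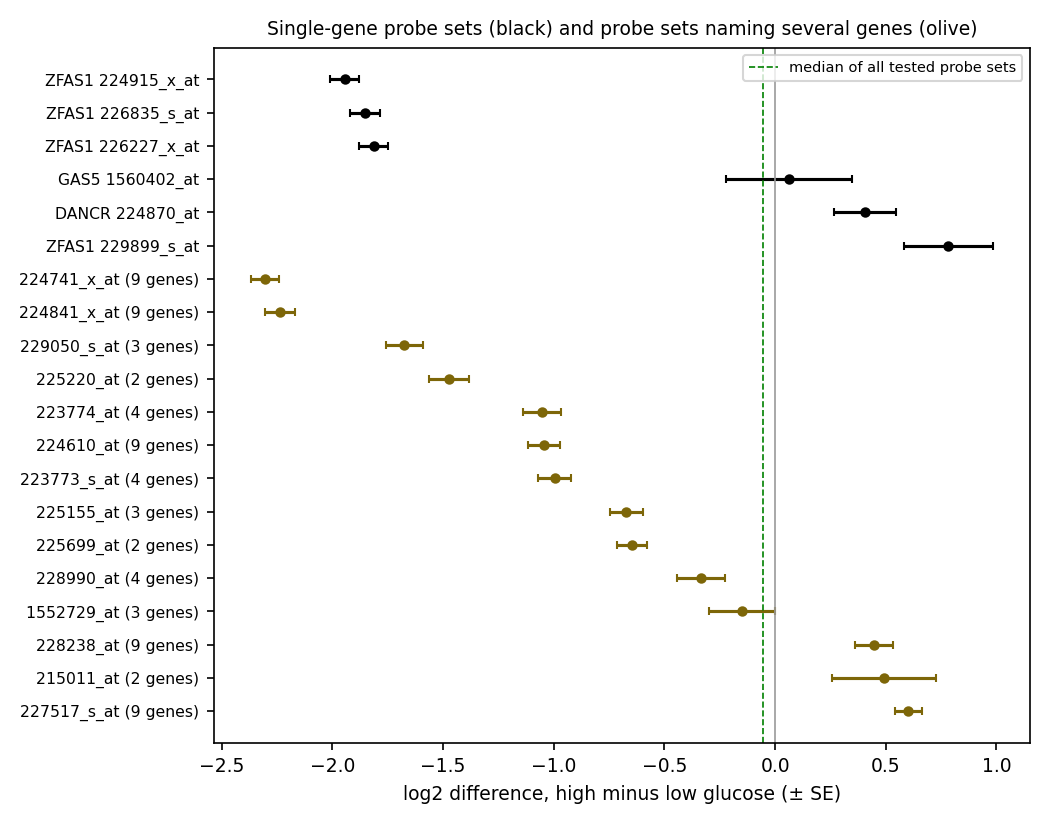
Log2 difference (high minus low glucose) with its SE from the fit, for the 6 single-gene probe sets in black and the 14 probe sets naming several genes in olive. The dashed line is the median of all tested probe sets, at -0.06, and the points run from -2.30 for 224741_x_at to 0.78 for ZFAS1 229899_s_at.

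Among 12 other noncoding snoRNA hosts listed, 5 had a probe set naming them alone and 2 of those were above the filter. Both were lower in high glucose, beside 32.6% of all 12242 genes when each gene is taken by its brightest probe set. EPB41L4A-AS1 read 1020 and 977 in high glucose, against 4357 and 4488 in low glucose, a 4.43-fold fall (limma adjusted p = 1.4e-06). Its second probe set stood at 0.56 ± 0.23 without passing (limma adjusted p = 0.078). SNHG17 fell by 0.50 log2 units (limma adjusted p = 0.00035), and its second probe set by 0.60.

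Protein-coding snoRNA hosts, many of them ribosomal protein and translation factor genes, went both ways. Of 40 listed, 18 had no probe set naming them alone and 21 were measured, of which 9 were lower, 4 higher and 8 did not pass (among all genes, 32.6% lower and 23.8% higher). RPL12, a protein of the large ribosomal subunit, was 1.64-fold lower, with its second probe set also lower. AP1G1, an adaptor subunit of clathrin-coated vesicles, and RCC1, the nucleotide exchange factor of Ran, were 1.61-fold and 1.41-fold higher. Another AP1G1 probe set was higher, and the third stood at 0.54 log2 units without passing (limma adjusted p = 0.054). The list median was -0.15, against -0.10 for all genes, and it turned to 0.01 after quantile normalization and 0.02 after median centring. The median of all tested probe sets moved as well, from -0.06 to 0.01 and to 0.11 under these settings. The list median was -0.24 without low glucose replicate 1, -0.06 without low glucose replicate 2 and -0.05 without _x_at and _s_at probe sets.

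The snoRNP proteins and their assembly factors were more often higher. Of 18 genes listed, 2 had no probe set naming them alone. Of 16 measured members, 11 rose, 3 fell and 2 did not pass, with a list median of 0.35 against -0.10 for all genes. Among all genes, 23.8% rose, 32.6% fell and 56.4% passed in either direction. With no trend, 8 members rose, 2 fell and 6 did not pass, beside 5256 higher and 6340 lower of 27307 tested probe sets. NOP58, a core protein of box C/D particles, rose 2.21-fold, NUFIP1, an assembly factor, 2.15-fold, and GAR1, a core protein of H/ACA particles, 1.50-fold. Both further NUFIP1 probe sets also rose, but by less, at 0.60 log2 units each. PIH1D1, an assembly factor, fell by 0.49 log2 units. Fibrillarin, FBL, the methyltransferase of the box C/D particle, fell by 0.39 log2 units. SNU13, which binds the snoRNA directly, fell by 0.25 log2 units. After median centring 1 member was called lower, so not all of these 3 falls held. The poly-A spikes were also 3.84-fold higher in high glucose, and whether they bear on the values of these genes was not tested.

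Nucleases and cofactors that trim snoRNAs out of introns rose in 7 of 14 measured genes and fell in 3, beside 23.8% higher and 32.6% lower among all genes, with a median of 0.20 against -0.10. The median was 0.12 without high glucose replicate 1, 0.37 after median centring and 0.32 without _x_at and _s_at probe sets. After median centring that of all tested probe sets was 0.11. EXOSC3 and EXOSC2, cap subunits of the RNA exosome, rose 1.64-fold and 1.42-fold, MTREX, its helicase, 1.44-fold and DBR1, the debranching enzyme, 1.39-fold. Of 4 further EXOSC3 probe sets, 1 rose and 3 did not pass. No member was called lower after median centring, with no trend or without high glucose replicate 2, and 1 was called lower with no filter. Nonsense-mediated decay factors rose in 3 of 13 measured genes and fell in 6, beside 23.8% and 32.6% of all genes, with a median of -0.12 against -0.10, so the share that rose and the median lay near those of all genes. The median was -0.20 without high glucose replicate 1. DCP2, the decapping enzyme, and DHX34 rose 1.80-fold and 1.55-fold, SMG9, a partner of the SMG1 kinase, fell 2.23-fold, and UPF1, the central helicase of the pathway, fell by 0.38 log2 units. The other probe sets of DCP2, DHX34 and SMG9 were called in the same direction as the brightest, that of DHX34 at 2.63 log2 units. After median centring the list held 4 higher and 2 lower and its median turned to 0.05, beside 0.11 for all tested probe sets. With no trend 3 fell.

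Long noncoding RNA genes that are not snoRNA hosts also went both ways, with 2 of 13 measured genes higher, 6 lower and 5 not passing, beside 23.8% higher and 32.6% lower among all genes. The list median was -0.21 against -0.10, and it was -0.07 without high glucose replicate 1 and -0.41 without low glucose replicate 1. After quantile normalization it was -0.11, beside 0.01 for all tested probe sets, and after median centring -0.04, beside 0.11. FTX rose 2.13-fold, while OIP5-AS1 and NORAD, abundant cytoplasmic RNAs, fell 1.83-fold and 1.54-fold. The third OIP5-AS1 probe set stood at -0.13 and did not pass. After each of the 3 normalizations 4 genes were called higher, and without high glucose replicate 2 or low glucose replicate 1 it was 1. Neither ZFAS1 nor EPB41L4A-AS1 was set against these lists in a test.

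**Figure D4:**
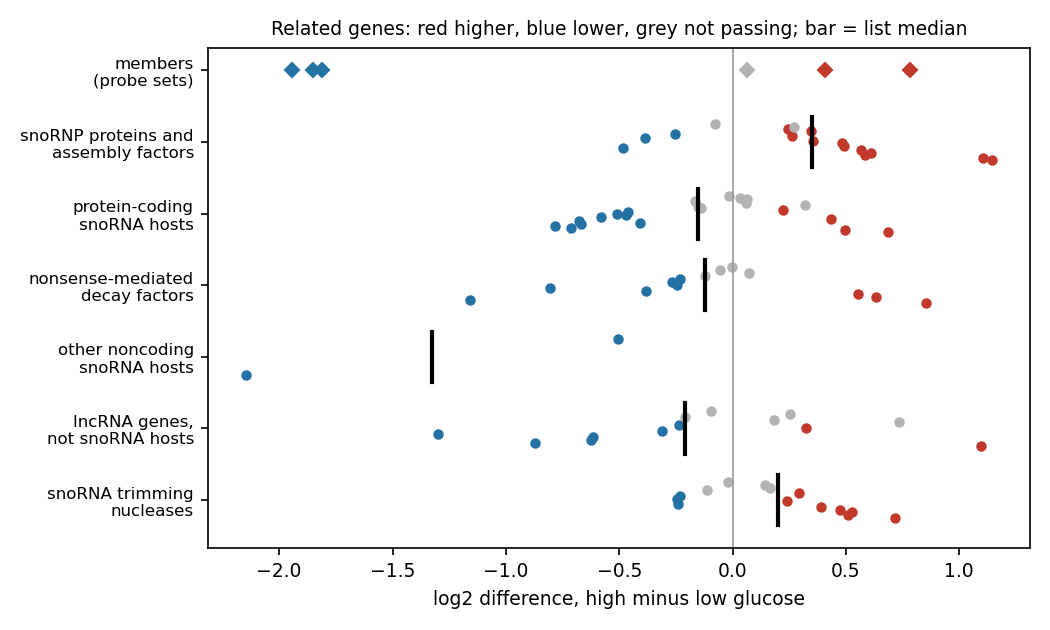
Log2 difference (high minus low glucose) of the 6 member probe sets (diamonds) and of the measured genes of 6 related lists (circles, brightest probe set per gene), coloured by call, with a bar at each list median. The list medians run from -1.33 for the 2 other noncoding hosts to 0.35 for the snoRNP proteins and assembly factors.

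The fall in the 3 bright ZFAS1 probe sets passed the threshold in every alternative that kept them, between -1.96 and -1.64 log2 units. The DANCR and dim ZFAS1 calls did not hold in all of them, and GAS5 passed in none.

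**Figure D5:**
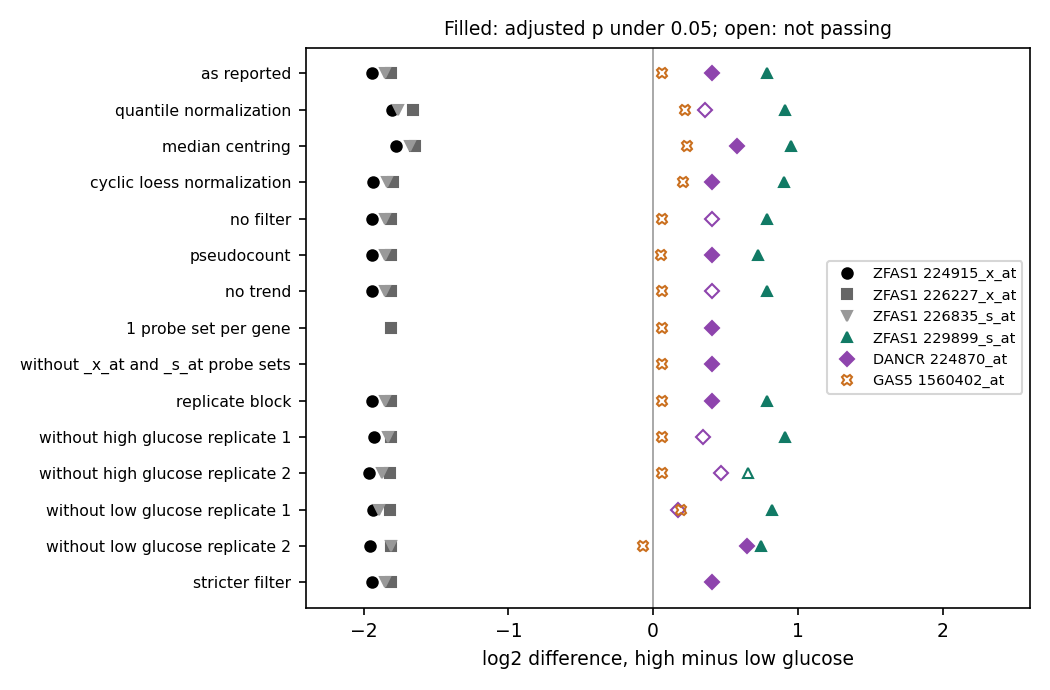
Log2 difference (high minus low glucose) of the 6 single-gene probe sets as reported and under each of 14 alternatives, filled where the limma adjusted p was under 0.05. The bright ZFAS1 probe sets stay between -1.96 and -1.64, DANCR ranges from 0.17 to 0.64, and no symbol is drawn where an alternative left a probe set out.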

How the data were processed

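The intensities deposited by the authors are linear signals, 1 per probe set and array. GCOS, software for Affymetrix arrays, appears in the submitters' processing notes. Its version and any further step are not given in these sources. The equal trimmed means show that the arrays had already been scaled. Detection calls were not used. GEO's platform annotation named 1 gene for 41097 probe sets, several for 1801 and none for 11777. Of those naming 1 gene, 41043 were matched by gene identifier to RefSeq (GRCh38.p14).

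Signals were log2-transformed without a pseudocount. The 62 control probe sets were left out, and the 27307 probe sets at or above the median of the mean log2 signal were kept. The group comparison used limma 3.58.1 under R 4.3.3 (lmFit, eBayes with an intensity trend, no covariate), two-sided, with Benjamini-Hochberg adjustment over all probe sets kept. Errors beside log2 differences are standard errors from the fit. All 10 genes and each of their single-gene probe sets were named whatever their values, as were the 3 genes with the smallest p of each related list. Gene lists used the brightest probe set per gene. PIH1D1, FBL, SNU13, DBR1 and UPF1 were named after their values had been seen. Each of these was given by its brightest probe set only, and any further probe sets of them were not compared. Members and lists were chosen with earlier results of these data known. On simulated data with 200 of 27307 probe sets changed, the test for high against low glucose recovered 15.8% of changes of 0.5 log2 units, 51% of 1 and 81.2% of 2, with 4.19% of calls false. The simulated probe sets varied independently, and few were changed, unlike here. The number of arrays limits the precision. Replicate numbers are shared between the groups, and no label says that they mark a shared batch. The 14 alternatives covered normalization, the filter, a pseudocount, the intensity trend, the choice of probe sets, the replicate block and leaving out each array.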

Additional observations from a re-analysis of the deposited data

How the results depend on the processing

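The fall of the 3 bright ZFAS1 probe sets kept its direction and stayed past the threshold in all 12, 13 and 12 alternatives that held each of them. Over the whole table, 2970 probe sets were higher and 4079 lower with 1 probe set per gene, 3618 and 4414 without _x_at and _s_at probe sets, and 4553 were lower with the stricter filter, each with fewer probe sets tested. The count of member probe sets called higher was 1 with quantile normalization, no filter, the stricter filter and no trend. It was also 1 with 1 probe set per gene and without _x_at and _s_at probe sets. The count of member probe sets called lower was 1 with 1 probe set per gene, which keeps only the brightest of ZFAS1. It was 0 without _x_at and _s_at probe sets, which removes ZFAS1 altogether. That setting left 1 higher and 6 lower among the probe sets naming several genes, for which 1 probe set per gene gives no value. The counts for those probe sets were added after the data had been seen. DANCR missed the threshold at 0.36 log2 units with quantile normalization (adjusted p = 0.061), 0.41 with no filter (adjusted p = 0.085) and 0.41 with no trend (adjusted p = 0.16), and lay between 0.17 and 0.64 with 1 array left out. The cause was not tested. The dim ZFAS1 probe set lay between 0.66 and 0.91, and GAS5 between -0.07 and 0.20, with 1 array left out, turning to -0.072 without low glucose replicate 2. With the replicate block 6335 probe sets were higher and 7507 lower, and no call of a member changed. Same-numbered arrays did not deviate together (r = 0.0077 over probe sets). With 2 arrays per group this cannot decide whether same-numbered samples were handled together. The GAS5 probe set 1560402_at lay near the filter signal of 32.9, at 38.3 ± 5.0 (SD of 2 arrays) in low glucose, and signal over background was not measured.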
